A study of Mus musculus with 8 samples.

Results

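The constant genes of the antibody chains and 3 of their partners were followed in orthotopic mouse liver tumors after a nanoparticle carrying imiquimod. The 10 genes were Ighm, Ighg1, Ighg2b, Ighg2c, Ighg3 and Igha of the heavy chain, Igkc of the kappa light chain, Jchain, Cd79a and Cd79b, picked by symbol from the 55536 genes counted. Each of the 10 was matched by its Ensembl identifier and each passed the filter on low counts, so all were among the 15998 genes tested. HCA-1 cells, a mouse hepatocellular carcinoma line, were implanted under the liver capsule of male C3H mice, 1000000 cells per mouse. On day 17 the mice received 1 intravenous injection, and tumors were taken 3 h later. The PFSUV-IMQ group (labelled IMQNP) received imiquimod, a TLR7 agonist, at 4 mg/kg in phospholipid-free small unilamellar vesicles, and the Control group received saline. Each group had 4 tumors, labelled as replicates 1, 3, 4 and 5 in Control and as replicates 1 to 4 in IMQNP. The sample labels give an age of 6 to 8 weeks, whereas the study's methods give a younger range. All tumors came from 1 cell line grown in the liver, so each sample holds tumor, host liver and immune cells together. No group that received empty vesicles or free imiquimod was analysed here. The comparison asks whether transcripts of antibody-making cells differed between the groups 3 h after dosing.

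An antibody is built of heavy and light chains, each with a variable part that binds antigen and a constant part that sets its class. A resting B cell transcribes Ighm and Ighd, and class switching joins the same variable exon to a downstream gamma, epsilon or alpha constant gene by deleting the DNA between. Plasma cells, which secrete antibody, carry very large amounts of constant chain transcript, whereas Cd79a and Cd79b encode the signaling pair of the B cell receptor and are kept by B cells that still bear it. In bulk tumors, fewer cells of a type and less RNA per cell cannot be told apart.

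In the GENCODE M21 annotation of the mouse build GRCm38 the heavy chain constant genes lie on the minus strand of chromosome 12. In the order of transcription they are Ighm at chr12:113418558-113422730, Ighd, Ighg3 at chr12:113356224-113361232, Ighg1 at chr12:113325240-113330523, Ighg2b at chr12:113302965-113307933, Ighg2c at chr12:113285325-113288932, Ighe, and Igha at chr12:113254830-113260236. Igkc lies at chr6:70726435-70726966 on the plus strand, and Jchain at chr5:88519809-88527891 on the minus strand. Cd79a occupies chr7:24897381-24902197 on the plus strand and Cd79b chr11:106311341-106314762 on the minus strand. The 4 IgG genes differ most visibly in the hinge, the short flexible exon between the arms and the stem of the antibody, whose cysteines join the heavy chains. The hinge exons are shown because the results below turn on telling these 4 subclasses apart, and in-frame cysteine codons are in capitals, read 5′ to 3′ on the minus strand. They span chr12:113329844-113329882 in Ighg1, chr12:113307261-113307326 in Ighg2b, chr12:113288263-113288325 in Ighg2c and chr12:113360529-113360576 in Ighg3.
Ighg1: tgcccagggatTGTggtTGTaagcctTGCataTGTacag
Ighg2b: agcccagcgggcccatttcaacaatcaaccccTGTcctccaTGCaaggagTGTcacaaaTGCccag
Ighg2c: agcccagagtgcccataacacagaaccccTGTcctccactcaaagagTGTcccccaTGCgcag
Ighg3: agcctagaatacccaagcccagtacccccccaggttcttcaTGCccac

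The hinge of Ighg1 has 39 bases and 4 cysteine codons, that of Ighg2b 66 bases and 4, that of Ighg2c 63 bases and 3, and that of Ighg3 48 bases and 1. Over the whole shortest transcripts, of 1076 to 1114 bases in the 4 IgG genes, no 50-base word of Ighg1 or Ighg3 occurred in a transcript of another gene. Ighg2b and Ighg2c shared 56 words, which is 5.26% and 5.27% of theirs, so part of their reads could be counted for either. Igkc, Igha, Ighm, Jchain and Cd79b shared none, and Cd79a shared 8.31% of its words with the pseudogene Gm32220, which held 0 or 1 count in each tumor. The annotation follows the C57BL/6 reference, whose locus carries Ighg2c where a number of other strains carry Ighg2a. How reads of the C3H gene align to Ighg2c was not tested.

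Counts per tumor totalled 16883911 to 27687756 in the Control group and 17008151 to 18527613 in the PFSUV-IMQ group. Levels are given as normalized CPM, which scales each library by edgeR's TMM method, and 3 counts in a tumor corresponded to 0.105 to 0.210 CPM, a floor that covers counting error only. Alb, the albumin gene of hepatocytes, reached 22446 CPM in Control replicate 4 and 22736 CPM in IMQNP replicate 2, against 2938 to 9027 CPM in the other 6 tumors. These 2 tumors also had the highest summed level of the 8 genes of the hepatocyte and liver tumor list, 31866 and 32739 CPM against 4282 to 13109 CPM. The oncofetal markers Afp and Gpc3 were low throughout, at 2.10 to 6.08 CPM and 0.629 to 1.99 CPM. For the 10 genes the fold changes without one or both of these tumors are given below where they differ much.

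None of the 10 genes was called different between the groups, where a call needed an adjusted p under 0.05 in the quasi-likelihood test of edgeR, adjusted by Benjamini-Hochberg over all tested genes, and a fold change of over 1 log2 unit in either direction. Over all tested genes 2.46% were called, and 2.26% were called higher. At an unadjusted p under 0.05 there were 3 of the 10 genes, Ighg1, Ighg3 and Igha, against 13.0% of all tested genes. Log2 fold changes were above 0 for 9 of the 10, with a median of 1.13, whereas 46.0% of all tested genes were above 0 and their median was -0.03. Every PFSUV-IMQ tumor lay above every Control tumor for 2 genes, Ighg1 and Ighg3, an arrangement found in 6.00% of tested genes. The 10 genes were measured in the same 8 tumors, so these counts are not 10 separate observations.

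The call depended on the tool and on the filter. DESeq2's Wald test, which gave no p-value for Ighm, called 3 of the 10 genes higher, Ighg1, Ighg3 and Igha, with 4.29% of all genes called. The same 3 were called by the quasi-likelihood test with no filter on low counts, with 1.60% of 34703 genes called. Without Control replicate 3 the quasi-likelihood test called Ighg1 alone, with 1.37% of genes called. With both tumors highest in hepatocyte genes left out it called Igha alone, at an adjusted p of 0.0346 and a log2 fold change of 1.58, with 1.92% of genes called.

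**Figure D1:**
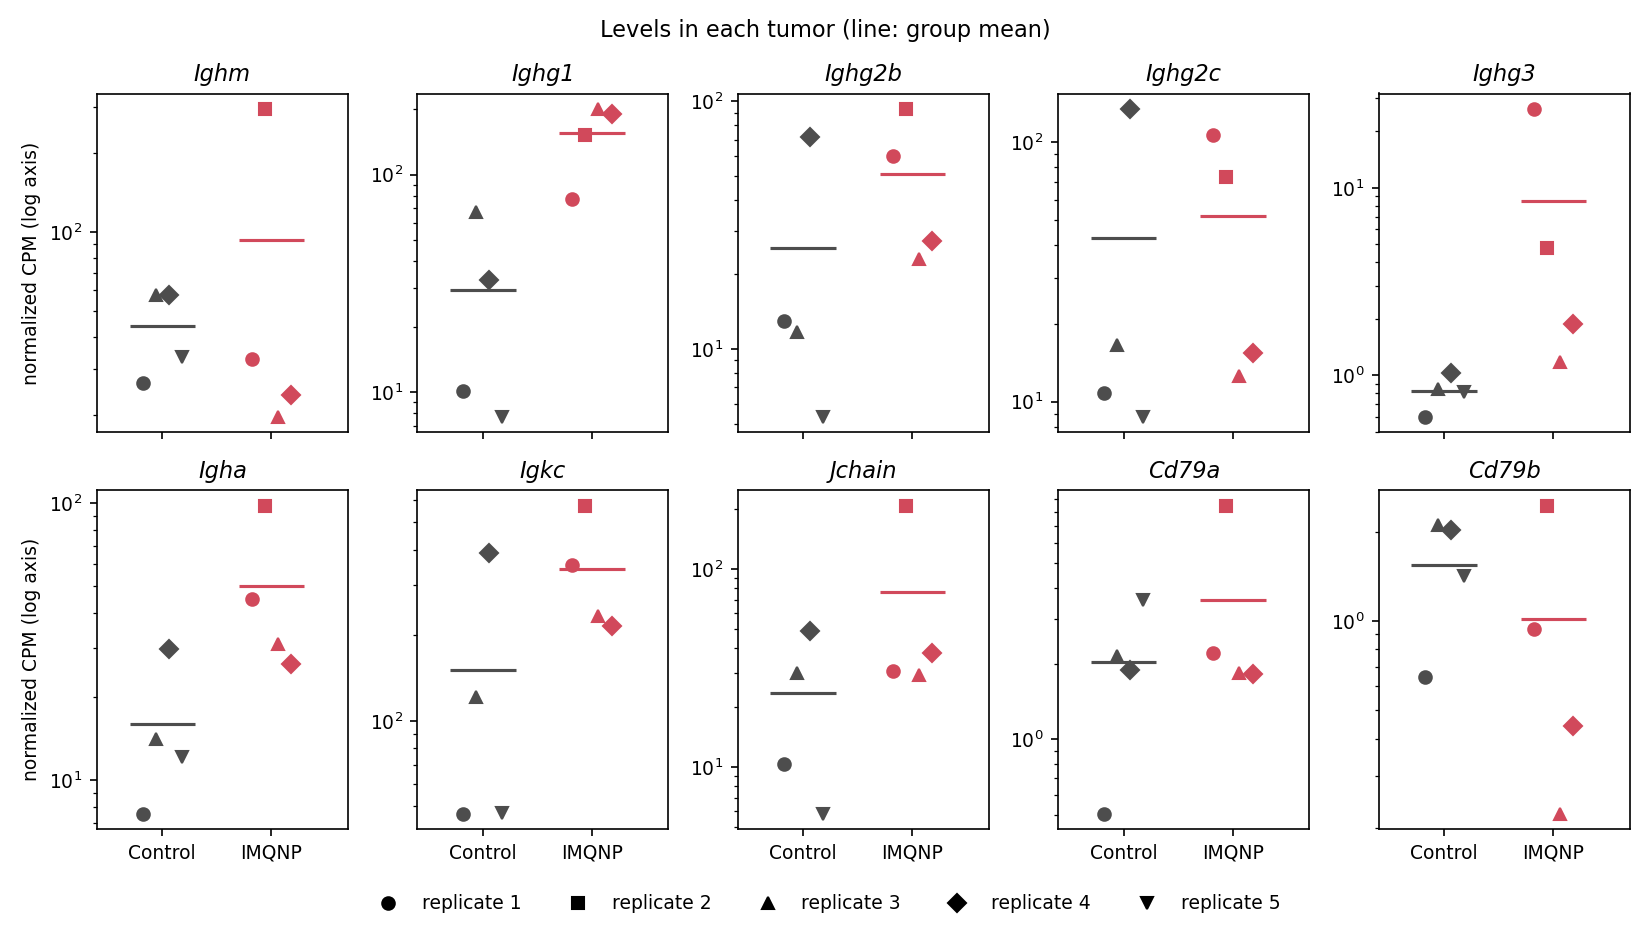
Normalized CPM of the 10 genes in each tumor, on a log axis that differs between panels, with Control tumors in gray, PFSUV-IMQ (IMQNP) tumors in red, marker shapes for the replicate number and a line at the group mean. The groups are separate for Ighg1 and Ighg3, and IMQNP replicate 2 (square) is the highest of the 8 tumors for 7 of the 10 genes.

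Ighg1 encodes the constant region of IgG1, the mouse class tied to type 2 help. It measured 10.2, 67.2, 32.8 and 7.71 CPM in Control replicates 1, 3, 4 and 5, and 77.1, 152, 200.2 and 189.8 CPM in IMQNP replicates 1 to 4. The lowest PFSUV-IMQ tumor, replicate 1, stood just above the highest Control tumor, replicate 3. Group means were 29.5 ± 27.6 CPM in Control and 154.8 ± 55.8 CPM after dosing with PFSUV-IMQ (SD, n = 4 each), and the log2 fold change was 2.39 ± 0.65 (SE), with an adjusted p of 0.110 by edgeR. Leaving out 1 tumor at a time gave log2 fold changes of 2.07 to 3.19, and without Control replicate 3 the adjusted p was 0.0399. EdgeR called Ighg1 higher on the tumors whose replicate numbers occur in both groups when a term for that number was added. The value there was 2.32 ± 0.27 (adjusted p = 0.00877), and 2.07 without the term and not called (adjusted p = 0.0822). Those fits called 4.32% and 3.87% of genes.

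Ighg3 encodes IgG3, a class that B cells make in good part without T cell help. The Control tumors held 0.599, 0.843, 1.03 and 0.814 CPM, from 13 to 24 counts each. IMQNP replicate 1 had 26.4 CPM and 478 counts, and replicates 2, 3 and 4 had 4.75, 1.17 and 1.88 CPM. The groups did not overlap, but IMQNP replicate 3 was only slightly above the highest Control tumor and replicate 1 was 5.55-fold above the next tumor. The log2 fold change was 3.37 ± 0.93 (adjusted p = 0.114, edgeR) with all tumors and 1.64 without IMQNP replicate 1. Group means were 0.822 ± 0.177 and 8.54 ± 12.0 CPM.

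Ighg2b and Ighg2c encode IgG2b and IgG2c, the classes bound most strongly by activating Fc receptors. Ighg2b measured 13.0, 11.7, 72.1 and 5.32 CPM in the Control tumors and 60.4, 93.2, 23.2 and 27.2 CPM after PFSUV-IMQ. Control replicate 4 lay among the PFSUV-IMQ tumors and the other 3 Control tumors lay below all of them. Its log2 fold change was 1.00 ± 0.77 (adjusted p = 0.688, edgeR), 2.34 without Control replicate 4 and 1.85 without both tumors highest in hepatocyte genes. Ighg2c measured 10.8, 16.5, 134.0 and 8.74 CPM in Control and 106.1, 73.1, 12.6 and 15.4 CPM after PFSUV-IMQ. Both groups were split, since Control replicate 4 was the highest of all and IMQNP replicates 3 and 4 lay within the range of the 3 low Control tumors. The log2 fold change of Ighg2c was 0.28 ± 0.98 (adjusted p = 0.952), and it ranged from -0.34 without IMQNP replicate 1 to 2.10 without Control replicate 4. Without both hepatocyte-rich tumors it was 1.86.

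Igha encodes the constant region of IgA, the class of mucosal secretions. Its level was 7.56, 14.1, 29.7 and 12.2 CPM in the Control tumors and 45.1, 97.7, 31.1 and 26.3 CPM in the PFSUV-IMQ tumors. Control replicate 4 lay between IMQNP replicates 4 and 3, and the other Control tumors were lower than every PFSUV-IMQ tumor. Means were 15.9 ± 9.61 and 50.1 ± 32.8 CPM, with a log2 fold change of 1.65 ± 0.51 and an adjusted p of 0.159 by edgeR.

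Ighm encodes the mu chain of IgM, the class of naive B cells and of the first response. It measured 26.5, 57.4, 57.9 and 33.3 CPM in Control and 32.9, 295.5, 19.7 and 24.0 CPM after PFSUV-IMQ. IMQNP replicate 2 was 5.11-fold above the next tumor, and the other 3 PFSUV-IMQ tumors lay below 3 of the 4 Control tumors. The direction of the group difference turned on that tumor, since the log2 fold change was 1.09 ± 0.83 (adjusted p = 0.681, edgeR) with it and -0.79 without it. Without Control replicate 4 as well, it was -0.64. The group medians, 45.4 CPM in Control and 28.5 CPM after PFSUV-IMQ, stood in the opposite order to the means of 43.8 and 93.0 CPM.

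Igkc encodes the constant region of the kappa chain, the light chain of most mouse antibodies. Control tumors had 47.1, 121.7, 388.2 and 47.5 CPM and PFSUV-IMQ tumors 352.6, 571.5, 233.6 and 215.3 CPM. All PFSUV-IMQ tumors were above 3 of the Control tumors, and Control replicate 4 stood between IMQNP replicates 1 and 2. The log2 fold change was 1.18 ± 0.67 (adjusted p = 0.535, edgeR), and 2.25 without Control replicate 4. With both tumors highest in hepatocyte genes left out it was 1.86, at an adjusted p of 0.0633.

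Jchain encodes the small chain that links IgM pentamers and IgA dimers. It measured 10.3, 29.9, 48.7 and 5.81 CPM in Control and 30.6, 208.3, 29.2 and 37.5 CPM after PFSUV-IMQ. The groups overlapped, and IMQNP replicate 2 was 4.28-fold above the next tumor, Control replicate 4. The log2 fold change was 1.69 ± 0.82 (adjusted p = 0.443, edgeR) and 0.44 without IMQNP replicate 2. It was 1.05 without both hepatocyte-rich tumors.

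Cd79a and Cd79b encode the Ig-alpha and Ig-beta chains that carry the B cell receptor signal into the cell, and both were near the lower end of what was tested. Cd79a had 0.507, 2.14, 1.89 and 3.58 CPM in Control and 2.21, 8.45, 1.84 and 1.82 CPM after PFSUV-IMQ, from 11 to 121 counts per tumor. Outside IMQNP replicate 2 the PFSUV-IMQ tumors lay within the Control range, and the log2 fold change of 0.81 ± 0.66 (adjusted p = 0.711, edgeR) was -0.06 without that tumor. Cd79b had 0.645, 2.11, 2.02 and 1.41 CPM in Control and 0.938, 2.45, 0.223 and 0.441 CPM after PFSUV-IMQ. Only 4 and 8 counts stood behind IMQNP replicates 3 and 4, the lowest values of Cd79b in the 8 tumors. The log2 fold change was -0.64 ± 0.67 (adjusted p = 0.783), the only one of the 10 below 0, and it was -1.54 without IMQNP replicate 2 and -1.40 without both hepatocyte-rich tumors. The ratio of Cd79a to Cd79b counts ran from 0.786 to 2.54 in Control tumors and from 2.35 to 8.25 in PFSUV-IMQ tumors, on the small counts given above.

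**Figure D2:**
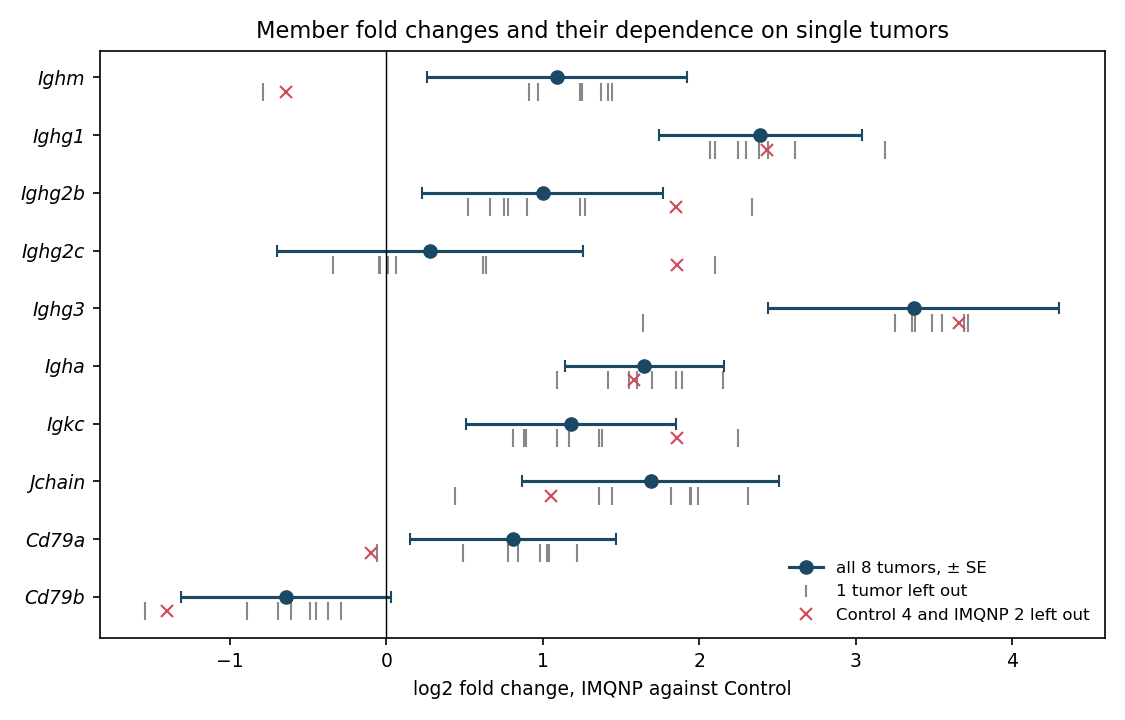
Log2 fold changes of PFSUV-IMQ (IMQNP) against Control tumors for the 10 genes, with points and bars for the value of all 8 tumors ± SE, ticks for the values with 1 tumor left out, and crosses for the value without Control replicate 4 and IMQNP replicate 2. Ighm, Ighg2c and Cd79a have values on both sides of 0, whereas Ighg1 stays between 2.07 and 3.19 in the leave-one-out values.

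Levels per kb of the shortest annotated transcript, which is the secreted form for the heavy chains, put Igkc first in both groups, at 284.1 ± 304.3 CPM per kb in Control and 645.2 ± 308.0 CPM per kb after PFSUV-IMQ (SD, n = 4). In Control tumors Ighg2c, Ighm, Ighg1, Ighg2b, Jchain and Igha followed at means of 38.3 down to 14.4 CPM per kb, and these neighbours did not differ beyond their spread, since the SD of Ighg2c alone was 55.0. After PFSUV-IMQ Ighg1 stood second at 143.9 ± 51.8 CPM per kb, ahead of Ighm at 62.3 ± 90.5 and Jchain at 54.8 ± 63.2. Ighg2c, Ighg2b and Igha followed at 46.6, 45.8 and 45.5 CPM per kb, again within their spread. Cd79a and Cd79b were at 2.46 ± 2.23 and 0.847 ± 0.838 CPM per kb after PFSUV-IMQ, more than an order of magnitude under Igha. Ighg3 was lowest of the 10 in Control tumors, at 0.760 ± 0.164 CPM per kb.

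The make-up of the heavy chain classes differed widely from tumor to tumor. Ighm led the heavy chain counts in Control replicates 1 and 5 and in IMQNP replicate 2, with 38.0%, 47.8% and 40.8% of counts. Ighg2c led in Control replicate 4 and IMQNP replicate 1, with 40.6% and 30.4%, and Ighg1 led in Control replicate 3 with 39.1%. IMQNP replicates 3 and 4 were nearly alike, with Ighg1 at 69.1% (95% Wilson interval 67.9 to 70.4%) and 66.5% (65.2 to 67.7%) of 5192 and 5178 heavy chain counts. These intervals cover counting error only. The Ighm share was 17.5 to 47.8% in Control tumors and 6.82, 8.40, 9.44 and 40.8% in PFSUV-IMQ tumors, so that 3 PFSUV-IMQ tumors lay below all Control tumors and replicate 2 lay among the higher ones. The Ighg1 share was 9.93 to 39.1% in Control and 20.99 to 69.1% after PFSUV-IMQ, and the groups overlapped. Igha kept a narrower range, 8.20 to 17.4% in Control and 9.21 to 13.5% after PFSUV-IMQ. Ighg3 was at 0.312 to 1.17% in every tumor but IMQNP replicate 1, where it was 7.56%.

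**Figure D3:**
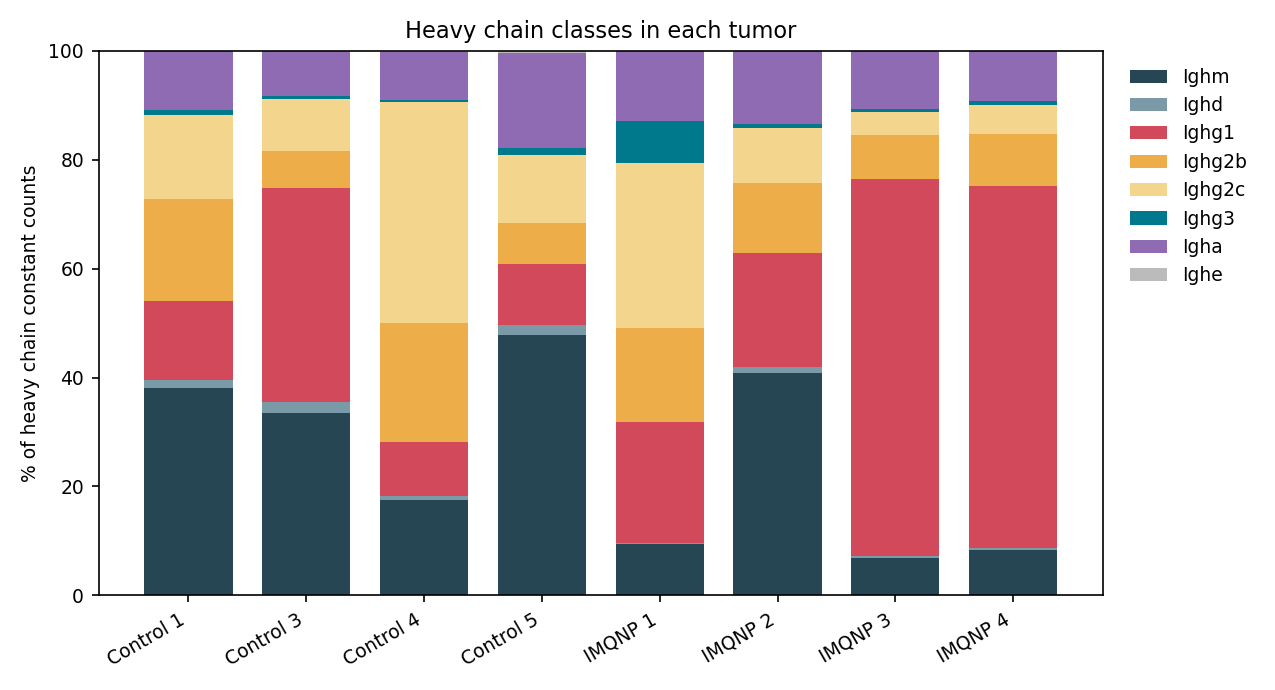
Share of each heavy chain class in the heavy chain constant counts of each tumor, in percent, with the classes stacked in the order of the legend. IMQNP replicates 3 and 4 are mostly Ighg1, at 69.1% and 66.5%, and IMQNP replicate 2 resembles the Control tumors in its Ighm share of 40.8%.

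The remaining constant genes were low. Ighd, which naive B cells express with Ighm, measured 1.06, 3.76, 2.36 and 1.36 CPM in Control and 0.883, 8.24, 1.45 and 0.717 CPM after PFSUV-IMQ. The lambda genes Iglc1, Iglc2 and Iglc3 were also highest in IMQNP replicate 2, at 16.5, 12.2 and 5.03 CPM, and none of the 4 tested genes of this list was called. Their log2 fold changes were 0.38 for Ighd, 0.95 for Iglc1, 0.70 for Iglc2 and 1.32 for Iglc3, and all 4 were below 0 without IMQNP replicate 2, with a median of -0.56. Ighe, the constant gene of IgE, had 2 to 11 counts per tumor, and Iglc4 had 0 or 1. Igkc made up 85.2 to 98.3% of light chain constant counts in Control and 94.4 to 98.6% after PFSUV-IMQ, with the lowest share in Control replicate 1, where Iglc1 took 12.5%.

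The variable segments gave a second readout of the same transcripts. The table holds 380 variable segment genes, of which 185 had at least 1 count in any tumor and 12 passed the filter for testing. None of the 12 was called by edgeR with all tumors, and 3 had an unadjusted p under 0.05, where 13.0% of all tested genes did. With both tumors highest in hepatocyte genes left out edgeR called Igkv3-4 (log2 fold change 4.77, adjusted p = 0.0418) and Ighv6-6 (3.27, adjusted p = 0.0229) higher. That fit called 1.92% of genes. With all tumors the log2 fold changes were -0.75 for Igkv3-4 and 0.11 for Ighv6-6. Control replicate 4, which that fit left out, held 644 counts of Igkv3-4. IMQNP replicates 3 and 4 held 128 and 151, and IMQNP replicate 1 held 11. Without IMQNP replicate 1 it called Igkv5-39 lower (-2.71, adjusted p = 0.0313), in a fit that called 2.44% of genes. Ighv6-6 and Igkv5-39 were chosen after their values were seen. Summed over all segments they took 30.7, 49.6, 230.7 and 25.2 counts per 1000000 counts in Control replicates 1, 3, 4 and 5 and 191.3, 142.9, 36.7 and 51.2 in IMQNP replicates 1 to 4. The groups overlapped, with Control replicate 4 the highest of all. The mean log2 difference of 0.63 gave p = 0.514 in an exact two-sided permutation test of 4 against 4 tumors, for which the smallest possible p is 0.0286, and without Control replicate 4 the difference was 1.33 (p = 0.114, exact). Without both tumors highest in hepatocyte genes it was 1.08 (p = 0.200, exact), where 3 against 3 tumors cannot go below 0.1. For each constant count there were 0.160 to 0.307 variable counts in Control tumors and 0.0695 to 0.273 in PFSUV-IMQ tumors. The lowest ratios, 0.0695 and 0.104, were in IMQNP replicates 3 and 4, the 2 tumors rich in Ighg1. Reads of C3H variable genes may align poorly to a reference of another strain, and that was not tested.

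Ighv1-82, at chr12:115952538-115953005, was the heavy segment with most counts in 7 of the 8 tumors. It took 58.7, 17.4 and 32.7% of heavy segment counts in Control replicates 1, 3 and 5, and 55.7, 35.9, 46.5 and 50.4% in the PFSUV-IMQ tumors. In level it measured 4.52, 2.46, 0.387 and 2.01 CPM in Control and 37.4, 18.3, 4.13 and 6.78 CPM in PFSUV-IMQ tumors, where only Control replicate 1 and IMQNP replicate 3 crossed. The log2 fold change of Ighv1-82 was 2.83 ± 0.81 (adjusted p = 0.127, edgeR), and it was called by DESeq2's Wald test (adjusted p = 0.00240) and by edgeR with no filter on low counts (0.0218). By share Control replicate 4 was the exception, with Ighv1-82 at 0.577% and Ighv3-4 at 24.8% (95% Wilson interval 22.7 to 27.0%). The leading kappa segment varied more. Igkv6-23 led in Control replicates 3 and 4 and IMQNP replicate 4, at 21.1, 20.97 and 24.2% of kappa segment counts. Igkv6-25 led in Control replicate 1 at 15.9% and in IMQNP replicate 2 at 32.3%, Igkv6-15 in Control replicate 5 at 14.98%, and Igkv3-7 in IMQNP replicate 1 at 26.6%. Igkv3-4 took 27.8% in IMQNP replicate 3, 23.7% in IMQNP replicate 4 and 18.6% in Control replicate 4, against at most 1.35% in the other 5 tumors. IMQNP replicates 3 and 4 therefore resembled each other in class and in kappa segments. Over all tested genes this pair differed by a chi-square of 29.4 per degree of freedom, the smallest of the within-group pairs but far above the 1 of sampling noise, so they were kept as 2 tumors.

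**Figure D4:**
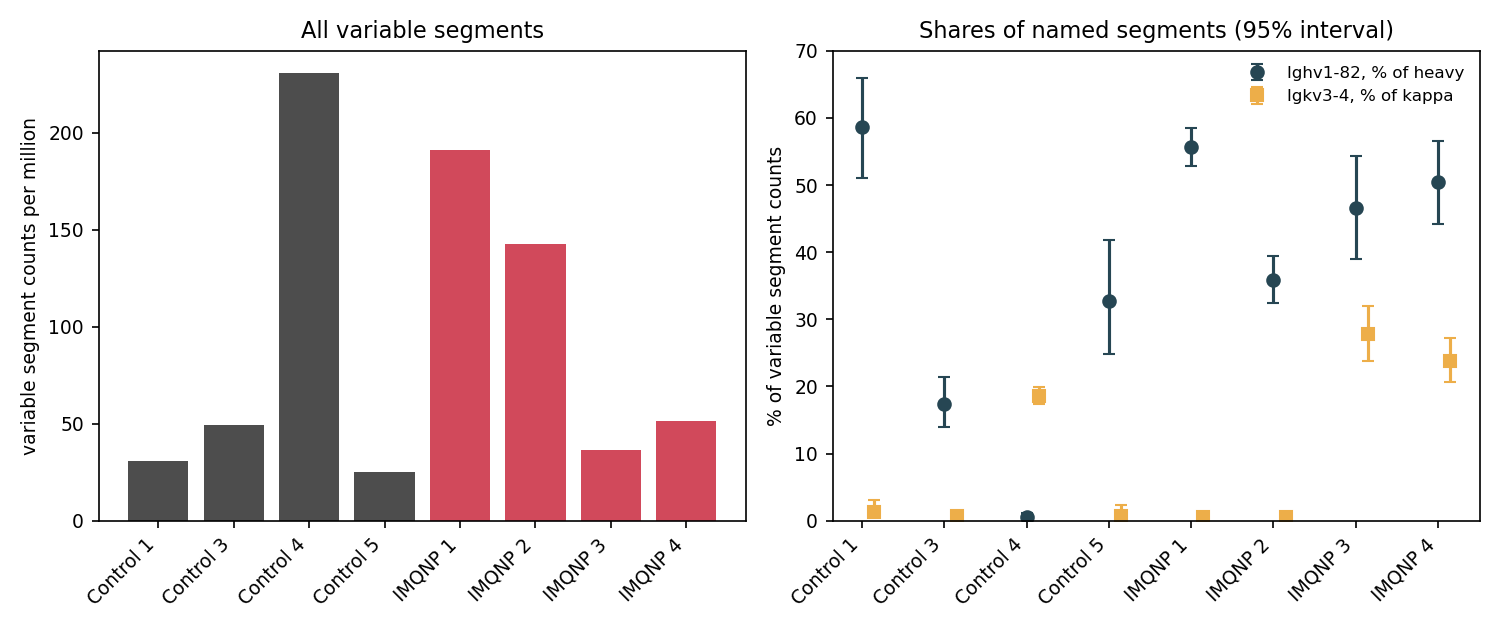
Left, counts of all variable segments in each tumor, scaled to 1000000 counts, with Control in gray and PFSUV-IMQ (IMQNP) in red. Right, the share of Ighv1-82 among heavy segment counts and of Igkv3-4 among kappa segment counts with 95% Wilson intervals, and Ighv1-82 is at 0.577% in Control replicate 4 and at 17.4% or more elsewhere, whereas Igkv3-4 is at 18.6% or more in 3 tumors and at 1.35% or less in the other 5.

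Genes that mark B cells gave no call by edgeR or DESeq2. Of 15 genes of the B cell identity list 13 were tested and none was called, with 2 at an unadjusted p under 0.05, 9 above 0 and a median log2 fold change of 0.20. Over all tested genes 13.0% had such a p and 46.0% were above 0. IMQNP replicate 2 held the highest value of 12 of the 13, where 20.2% of all tested genes were highest in that tumor, and it held the highest value of 7 of the 10 antibody and B cell receptor genes. Without it 9 of the 13 were below 0 and the median was -0.65, against -0.05 for all tested genes. Without both hepatocyte-rich tumors 10 genes of the list were tested, with a median of -0.38. Pax5, the factor that keeps B cell identity, measured 0.184 to 2.04 CPM in Control and 1.49, 9.50, 1.84 and 2.37 CPM in the PFSUV-IMQ tumors, and its log2 fold change was 1.91 ± 0.77 (adjusted p = 0.326, edgeR). Pou2af1, a coactivator of immunoglobulin genes, reached 15.02 CPM in IMQNP replicate 2 against 1.06 to 3.27 CPM in the other 7 tumors. Ms4a1, which encodes CD20, measured 0.369 to 1.48 CPM in Control and 0.717, 4.54, 0.223 and 0.220 CPM after PFSUV-IMQ.

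The surrogate light chain genes of early B cells (Igll1, Vpreb1, Vpreb2 and Vpreb3) summed to at most 0.613 CPM in any tumor, and Vpreb2 had no counts in any, which allows up to 0.105 to 0.210 CPM per tumor.

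**Figure D5:**
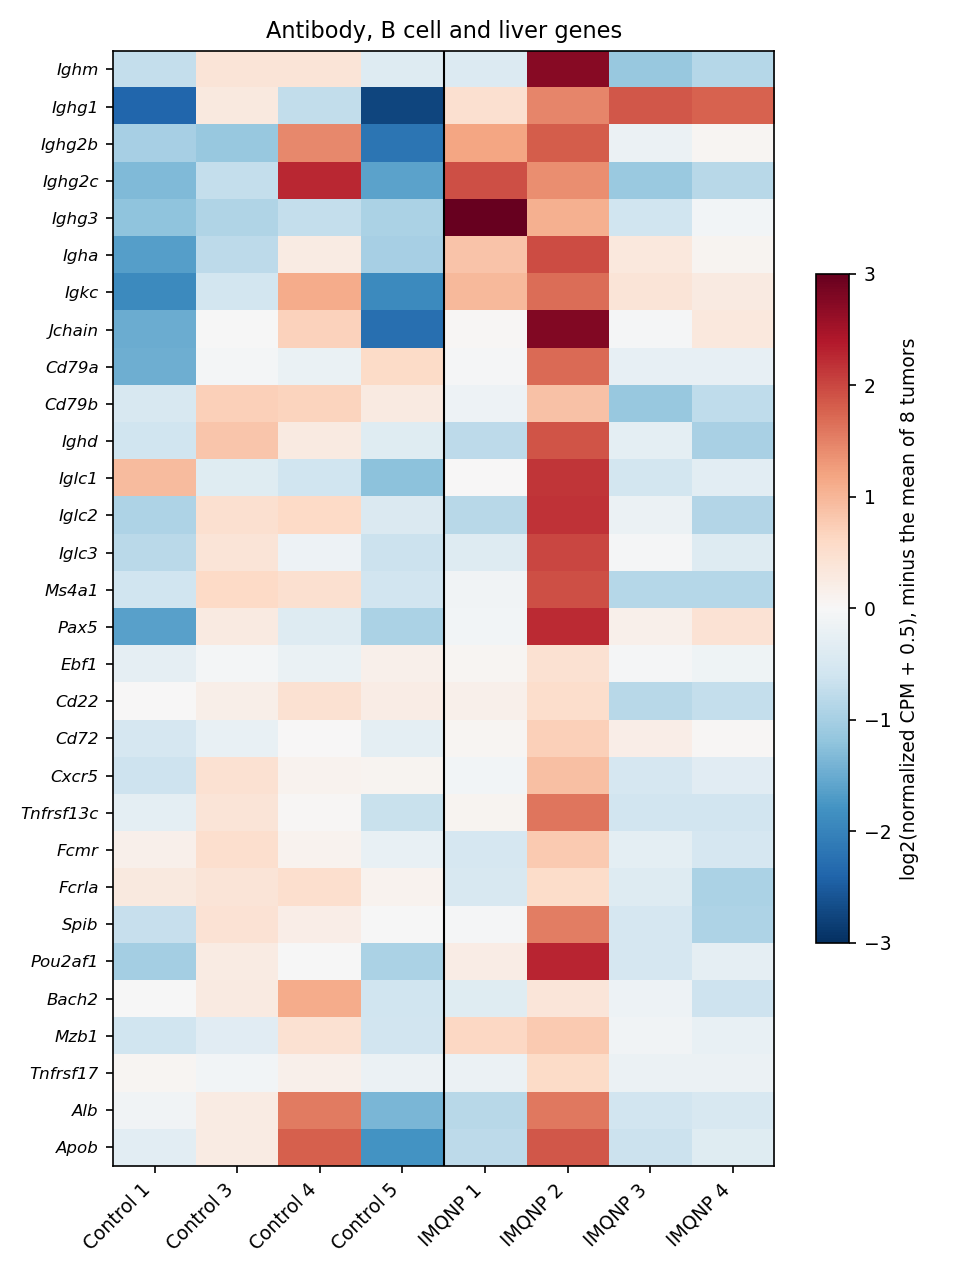
Log2 of normalized CPM plus 0.5, minus the mean over the 8 tumors, with colors ending at 3 in either direction. The rows are antibody constant genes, B cell genes, Mzb1 and Tnfrsf17 of the plasma cell list, and the hepatocyte genes Alb and Apob. The other genes of the plasma cell list are not drawn. Red columns of B cell genes stand in IMQNP replicate 2, and Alb and Apob are high there and in Control replicate 4.

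The plasma cell list had 13 genes, of which 11 were tested, 10 were above 0 and none was called with all tumors. Its members differed widely in level. Tnfrsf17, the receptor BCMA, was scarce at 0 to 0.349 CPM, as was Mzb1, an antibody-folding helper, at 0.0922 to 1.05 CPM. Prdm1 and Irf4 of the same list were higher. Prdm1 had means of 9.58 CPM in Control and 10.8 CPM after PFSUV-IMQ, and Irf4 had means of 4.79 and 4.92 CPM. Most of the summed level of 920 to 1475 CPM came from Sdc1, Xbp1, Txndc5 and Sec11c, which other epithelial and secretory cells also express. Creld2, a chaperone of the endoplasmic reticulum, measured 41.2 to 77.8 CPM in Control and 90.5 to 118.3 CPM after PFSUV-IMQ without overlap, and its log2 fold change was 0.85 ± 0.21 (adjusted p = 0.0774, edgeR). Tnfrsf13b, the receptor TACI, had a log2 fold change of -0.87 ± 0.43 (adjusted p = 0.460). On the tumors whose replicate numbers occur in both groups edgeR called Tnfrsf13b lower. Its log2 fold change there was -1.56 with a term for that number (adjusted p = 0.043) and -1.60 without the term (adjusted p = 0.019). Those fits called 4.32% and 3.87% of genes.

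No gene of the signaling and class switching lists was called by edgeR with all tumors and the filter on low counts. All 14 genes of the B cell receptor signaling list were tested, 8 of them below 0, with a median of -0.16. The largest differences were those of Pik3ap1, the adaptor BCAP, at 1.63 ± 0.58 (adjusted p = 0.247), and the kinase Lyn at 0.73 ± 0.32 (adjusted p = 0.368), both highest in IMQNP replicate 2. Without that tumor Pik3ap1 stood at 0.79, and with all tumors DESeq2's Wald test called it (adjusted p = 0.0467). Of the 9 germinal center and class switching genes 7 were tested. Fas, a death receptor, stood at 2.28 ± 0.62 (adjusted p = 0.110), with 2.99 to 10.1 CPM in Control and 13.9, 86.4, 18.1 and 21.1 CPM after PFSUV-IMQ, and at 1.28 without IMQNP replicate 2. It was called by edgeR with no filter on low counts (adjusted p = 0.0147) and by DESeq2's Wald test (adjusted p = 0.00235). Fas was also called higher by edgeR on the tumors whose replicate numbers occur in both groups, at a log2 fold change of 1.03. The adjusted p there was 0.0314 with a term for that number and 0.0415 without the term. Those fits called 4.32% and 3.87% of genes. Gcsam stood at -1.18 ± 0.42 (adjusted p = 0.256). On the tumors whose replicate numbers occur in both groups, edgeR with a term for that number called Gcsam lower (-1.51, adjusted p = 0.049). Without the term it was not called on those tumors.

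Of the 121 genes of the context lists 102 were tested and 3 were called by edgeR, Trim21, Fcgr1 and Il6, a share near the 2.46% called over all tested genes. Trim21, a cytosolic antibody receptor and ubiquitin ligase, rose from 21.6 CPM in Control, with tumors at 17.0 to 26.0 CPM, to 103.8 to 157.3 CPM, a log2 fold change of 2.53 ± 0.20 (adjusted p = 5.0e-04, edgeR). It was called in every fit that left out a tumor. Fcgr1, the high-affinity receptor for IgG on myeloid cells, rose from 28.1 to 40.0 CPM in Control to 72.9, 127.4, 63.2 and 60.8 CPM, a log2 fold change of 1.32 ± 0.26 (adjusted p = 0.0290). That call was lost without Control replicate 1, 3, 4 or 5, at adjusted p of 0.0929, 0.107, 0.0512 and 0.0680, and without IMQNP replicate 2, where the log2 fold change was 0.99. Il6, a growth factor for plasmablasts, rose from 0.323 to 0.808 CPM to 1.54, 7.13, 2.06 and 3.36 CPM, a log2 fold change of 2.61 ± 0.54 (adjusted p = 0.0374). The Il6 call was lost with any tumor left out other than IMQNP replicate 1, at adjusted p of 0.0510 to 0.124. Cxcl13, which attracts B cells to follicles, was at 10.9 CPM in IMQNP replicate 2 and at 1.00 to 3.91 CPM in the other tumors, and Tnfsf13b, the survival factor BAFF, had a log2 fold change of 0.18 ± 0.25. Cxcl12 of the same list stood at -0.59 ± 0.66 with all tumors. EdgeR called Cxcl12 lower on the tumors whose replicate numbers occur in both groups (-1.76, adjusted p = 0.0436). With a term for that number added it was not called (-1.57, adjusted p = 0.0520). Fcgr4 measured 18.7 to 35.3 CPM in Control and 37.3 to 91.9 CPM after PFSUV-IMQ, with an adjusted p of 0.140, and the transporter Pigr, at 348.5 and 428.2 CPM, was highest in Control replicate 4 and IMQNP replicate 2.

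Markers of other cells also varied, some of them with single tumors, and their part in the levels above was not tested. Summed over its 8 genes the T cell list ran from 77.4 to 169.0 CPM in Control and 79.9 to 198.8 CPM after PFSUV-IMQ, with the 2 largest log2 fold changes at 0.48 for Cd8a and -0.45 for Trac. The macrophage list summed to 979 to 1402 CPM and 754 to 1447 CPM, with Csf1r at -0.75 and Adgre1 at -0.42. The neutrophil list summed to 15.7 to 59.5 CPM and 30.7 to 142.9 CPM, with all 5 tested genes highest in IMQNP replicate 2, Retnlg at 2.48 ± 0.95 and S100a9 at 1.17 ± 0.83, and its defining marker Ly6g at 0 to 1.26 CPM. The plasmacytoid dendritic cell list summed to 67.2 to 89.1 CPM and 66.7 to 117.8 CPM, with Ly6d at 1.25 ± 0.33 (adjusted p = 0.0979) and Siglech at -1.11 ± 0.41. Most of that sum in each tumor came from Runx2, at 56.5 to 78.9 CPM in Control and 53.5 to 108.3 CPM after PFSUV-IMQ. Siglech was at 0.938 to 4.57 CPM over the 8 tumors. The red blood cell list summed to 131.5 to 305.0 CPM and 52.5 to 138.5 CPM, with Hbb-bs at -1.24 ± 0.39 and Hbb-bt at -1.44 ± 0.52, each lower in every PFSUV-IMQ tumor than in every Control tumor. The share of all tested genes lower in this way was not counted. With each tumor left out Hbb-bs stayed at -0.84 to -1.46 and Hbb-bt at -0.79 to -1.77. Of the hepatocyte list Hnf4a stood at 0.35 ± 0.76 and Gpc3 at 0.36 ± 0.41. None of the genes in these 6 lists was called by edgeR with all tumors. On the tumors whose replicate numbers occur in both groups, edgeR with a term for that number called Siglech, Hbb-bs and Hbb-bt lower. That fit called 4.32% of genes. Without the term, on the same tumors, Siglech alone of these lists was called lower, with 3.87% of genes called. At an unadjusted p under 0.05 there were 3 of 4 tested red blood cell genes, 2 of 6 plasmacytoid dendritic cell genes and 1 of 5 neutrophil genes. Likewise there were 2 of 14 genes of B cell receptor signaling, 2 of 7 of germinal center and class switching, and 1 of 11 plasma cell genes. Over all tested genes 13.0% had such a p, and the counts per list are small. DESeq2's Wald test called 5 further context genes, Fas, Pik3ap1, Ly6d and Fcgr4 higher and Hbb-bs lower, with 4.29% of all genes called.

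The genes whose log2 CPM over the 8 tumors was most like that of Igkc, outside the immunoglobulin loci and the 10 genes, were Bcar3 (Pearson r = 0.978), Apol7a (0.969), Cachd1 (0.954), Slc39a2 (0.949) and Wnt10a (0.948). For Cd79a they were Batf3 (0.984), Gm11273 (0.975), Lta (0.958), Sema4f (0.946) and Cox8a (0.944). Without IMQNP replicate 2 these values were 0.932 to 0.971 for Igkc and 0.884 to 0.974 for Cd79a. They are the extremes of 15998 genes over 8 points that share libraries, and are given as a description. Among the 10 genes themselves Igkc went with Igha and Ighg2b (r = 0.93 each) and Jchain (0.90), whereas Ighg1 and Cd79b had r = -0.27.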

How the data were processed

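Whole tumor RNA from 8 tumors was sequenced as mRNA libraries. The authors deposited raw counts of reads per gene, and a second deposited table of signal values, the same counts divided by 1 size factor per tumor (DESeq2), which served for symbols and 1 alternative. The submitters' processing notes name Trimmomatic 0.38, HISAT2 2.1.0 and featureCounts 2.0.0, whereas the study's methods name TopHat and HTSeq, so the aligner and counter are uncertain. How multiply aligned reads were counted is not given in the sources used here. A different aligner could move reads between similar constant or variable genes.

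The 10 genes and the gene lists were chosen with earlier results of these data known. Counts of 55536 genes were matched by identifier to GENCODE M21. Groups were compared with edgeR 4.0.16 in R 4.3.3 (TMM, default filter, quasi-likelihood test, Benjamini-Hochberg adjustment over 15998 genes), without a term for replicate number. Standard errors are the log2 fold change divided by the root of the F statistic. DESeq2 1.42.0 was an alternative. On simulated counts of 15998 genes, 151 of 200 genes with a 2-unit log2 change were recovered by edgeR. The changed genes were picked at random, and counts were drawn independently for each gene and tumor. The recovered share therefore does not measure power for the 10 genes, whose standard errors were 0.51 to 0.98. Log2 CPM for likeness used a prior count of 2. Shares carry Wilson 95% intervals. Variable segments were compared by an exact permutation test over 70 groupings in scipy 1.17.1. Depth ran from 16883911 to 27687756 counts. No source gives a batch or date, and p-values measure the spread between these tumors. Genes named are the 10, the other constant genes, the leading variable segments, and the 5 genes most like Igkc and Cd79a. From 14 lists they include every gene edgeR called with all tumors, or else the 2 tested genes with the largest change. Genes such as Ms4a1, Cxcl13, Tnfsf13b, Fcgr4 and Pigr, and the markers used to check a list, were named after their values were seen. Some genes of the lists are not reported here by name.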

Additional observations from a re-analysis of the deposited data

Results flagged for a closer look

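Within each group of 4 tumors, the gap between the most extreme tumor and its nearest neighbour was compared with the whole range of the group, for the levels and heavy chain shares of these genes. The gap exceeded the 95% critical value of Dixon's test in 14 of 42 groups examined. Chance gives about 1 in 20 only for separate, normally distributed values. Levels and shares were used here without a log scale, and every flagged tumor was the highest of its group. The quantities examined are also related to each other, so the 1 in 20 is not a measure of excess here.

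IMQNP replicate 2 stood above its group in 8 of them. It had 296 CPM of Ighm against 19.7 to 32.9 CPM in the other 3 PFSUV-IMQ tumors, 208 CPM of Jchain against 29.2 to 37.5, and 8.45 CPM of Cd79a against 1.82 to 2.21. Ighd was at 8.24 CPM, Iglc1 at 16.5, Iglc2 at 12.2 and Iglc3 at 5.03, and Ighm made up 40.8% of its heavy chain counts against 6.82 to 9.44%. The summed hepatocyte list was also highest in that tumor, at 32739 CPM, and the part of liver tissue in these levels was not tested.

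Control replicate 4 stood above its group for Ighg2b at 72.1 CPM (others 5.32 to 13.0), for Ighg2c at 134 CPM (others 8.74 to 16.5) and for variable segments at 231 counts per 1000000 (others 25.2 to 49.6). Its summed hepatocyte list was 31866 CPM.

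IMQNP replicate 1 stood above its group for Ighg3, at 26.4 CPM against 1.17 to 4.75 and at 7.56% of heavy chain counts against 0.404 to 0.657%. Control replicate 3 stood above its group for the Ighg1 share, at 39.1% against 9.93 to 14.6%.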

How the results depend on the processing

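The count of the 10 genes called, 0 as reported, was 3 with DESeq2's Wald test, 3 with no filter on low counts, 1 with the replicate block (Ighg1), 1 with both tumors highest in hepatocyte genes left out (Igha), and 0 to 1 when a single tumor was dropped. The context genes called, 3 as reported, numbered 8 with DESeq2, 8 with the replicate block, 6 on the same 6 tumors without the block, and 1 to 3 with each tumor left out. Over all tested genes 2.46% were called as reported, 4.29% with DESeq2 and 1.60% with no filter on low counts. The block called 4.32%, the same tumors without it 3.87%, and the fit without both hepatocyte-rich tumors 1.92%. Fits with 1 tumor left out called 1.29 to 2.44%. Across 17 alternatives Ighg2b, Igkc, Jchain, Ighg1, Ighg3 and Igha kept a positive log2 fold change, and Cd79b kept a negative one in the 16 that could be fitted, since it had too few counts for the filter of 10 counts in every tumor. Ighm reversed to -0.86 under the block, -0.90 on those tumors without it and -0.64 without both hepatocyte-rich tumors, and ranged from -0.79 to 1.44 with each tumor left out. Ighg2c reversed to -0.20 under the block and -0.27 without it, and ranged from -0.34 to 2.10 with each tumor left out. Cd79a reversed to -0.10 without both hepatocyte-rich tumors and ranged from -0.06 to 1.22. These changes come with fewer tumors in the fit. The difference in variable segments was 0.24 to 1.33 with each tumor left out and 0.01 within the shared numbers of the replicate block.

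The numbers 1, 3 and 4 occur in both groups, and same-numbered tumors had deviations correlated at 0.29, -0.27 and -0.32. Pairs with unlike numbers ran from -0.64 to 0.68, so these few values cannot settle whether same-numbered tumors share anything. What the numbers stand for is not given in the sources used here. The block moved calls over all genes to 401 higher and 300 lower, from 423 and 205 on the same tumors. Size factors of the deposited table, the fits on the same tumors without the block and those without both hepatocyte-rich tumors were chosen after seeing the data. With Cd79b at 4 to 60 counts per tumor, small differences in it were not detectable at this depth.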
